A study of Mus musculus with 6 samples.

Results

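The protein tyrosine phosphatases examined here were the protein-coding genes whose symbols begin with Ptpn and a digit, Ptpr and a letter, or Ptp4a. There were 36 of them among the 15388 genes of the deposited table, namely 19 receptor-type genes, 14 cytosolic genes and 3 small prenylated phosphatases of the Ptp4a group. Ptpn7, Ptpn20, Ptpn22, Ptprq, Ptprv and Ptprcap were not analysed here. RNA came from the hippocampus of 3 Tam-induced mice, animals 201, 207 and 208, of the genotype Cx3cr1-Cre/Ert2+; NuTRAP+, about 3 months old and of either sex per the methods of the study. Each animal gave an Input library, from the cleared homogenate, and a Positive library, from ribosomes pulled down with an antibody against GFP in translating ribosome affinity purification (TRAP). NuTRAP is a reporter that puts GFP on a ribosomal protein after Cre recombination, and the Cre is expressed from 1 allele of Cx3cr1, a chemokine receptor gene of microglia and related macrophages. Both fractions therefore share genotype, tamoxifen and animal, and differ in the pull-down. No library without Cre was analysed here, so RNA that stays on the beads for other reasons and RNA of tagged ribosomes cannot be told apart.

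Protein tyrosine phosphatases remove phosphate from tyrosine and so oppose the tyrosine kinases. The classical enzymes use a cysteine that forms a short-lived bond with the phosphate and an arginine that holds it, both in a short signature loop. Receptor-type members carry this domain behind a transmembrane segment and an extracellular part that binds neighbouring cells, matrix or secreted ligands, whereas cytosolic members are brought to their substrates by SH2, FERM or proline-rich regions. In microglia the family is best known for CD45 (Ptprc) and for SHP-1 (Ptpn6), which is recruited by inhibitory receptors, while neurons and other glia use adhesion-type members at synapses and on matrix.

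The signature loop is shown for 8 members because it is the part the family has in common, and these members include genes that were higher, lower and not past the test below. The lines give 24 coding bases, 5′ to 3′, read from the principal GENCODE M21 transcript (build GRCm38, the same assembly as mm10), with the codons of the catalytic cysteine and of the arginine in capitals.
Ptpn6: catTGCagcgctggcatcggcCGC
Ptpn11: cacTGCagcgctgggattggcCGG
Ptprc: cacTGCagtgctggtgttgggCGT
Ptpn18: cacTGCagtgctggctgcggaCGA
Ptprz1: cacTGCagtgctggcgtggggAGA
Ptp4a1: catTGTgtcgcaggccttggcAGA
Ptprn: cacTGCagtgacggtgcagggAGG
Ptprn2: catTGCagtgacggcgccggcAGG
The window starts at codon 452 of Ptpn6, 462 of Ptpn11, 702 of Ptprc, 228 of Ptpn18, 1929 of Ptprz1, 103 of Ptp4a1, 910 of Ptprn and 930 of Ptprn2. All 36 members held such a window, and 9 receptor-type members held 2. Ptpn6 and Ptpn11 had 20 of the 24 window bases in common and 61.0% identity over their aligned coding sequences.

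Libraries held 14879734 to 17757918 reads in genes, and the phosphatases took 0.364% to 0.393% of them. Values below are scaled reads, the deposited reads of a gene divided by a size factor of its library, and they are listed for animals 201, 207 and 208 in that order. The 10 microglia markers were all higher in Positive, with a median log2 fold change of 4.66 and summed scaled reads of 5542 to 6020 in Input against 112801 to 166295 in Positive. All 8 markers of border macrophages were higher too (median 4.16, summed scaled reads of 205 to 276 in Input and 2854 to 6148 in Positive). Lyve1, Cd209f, Pf4 and Ms4a7 among them passed the filter on low reads only through Positive. The 10 oligodendrocyte and 9 oligodendrocyte precursor markers were all lower (medians -2.34 and -1.85). By contrast, the 10 neuron markers had a median of 0.044, with 2 higher (Gad1 and Gad2) and 1 lower (Snhg11). They summed to 134780 to 151148 scaled reads in Input and 124002 to 141148 in Positive. Snhg11 alone had means of 29660 in Input and 12890 in Positive. All 10 endothelial markers were higher (median 1.88), and their median within an animal was 2.19 in 201, 2.01 in 207 and 1.12 in 208. Of 10 astrocyte markers 1 was higher and 4 lower (7 with the animal as a block, median -0.31), and of 10 mural cell markers 1 was higher and 9 did not pass (2 higher and 1 lower with the block, median -0.26). For comparison, 24.0% of all genes tested were called higher and 22.0% lower.

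Of the 36 phosphatase genes, 14 were higher and 7 lower in Positive at an adjusted p under 0.05 by the quasi-likelihood test of edgeR, and 15 did not pass it. Over all 15344 genes tested the shares called were 46.0% in either direction, 24.0% higher and 22.0% lower, against 38.9% and 19.4% of the phosphatases. The median log2 fold change was 0.04 for the phosphatases and -0.012 for all genes. All 36 passed the filter on low reads. The 3 Positive libraries lay above the 3 Input libraries in 14 of the 36 (38.9%) and below them in 7 (19.4%). Over all genes 28.9% and 27.6% were separated in this way. The separated phosphatases were the called ones, and the separation comes from the same values as the test. Only Ptpn6, Ptprc and Ptpn18 among the 36 exceeded 5-fold in this test, as did 3.75% of all genes. With the animal as a block, 14 were higher and 8 lower, against 25.4% and 23.9% of all genes. By class, 8 of 19 receptor-type genes were higher and 5 lower, 4 of 14 cytosolic genes were higher and 1 lower, and in the Ptp4a group 2 were higher and 1 lower. Both fractions come from the same tissue of an animal. In Input, the number of cells of a type and the RNA per cell cannot be told apart.

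**Figure D1:**
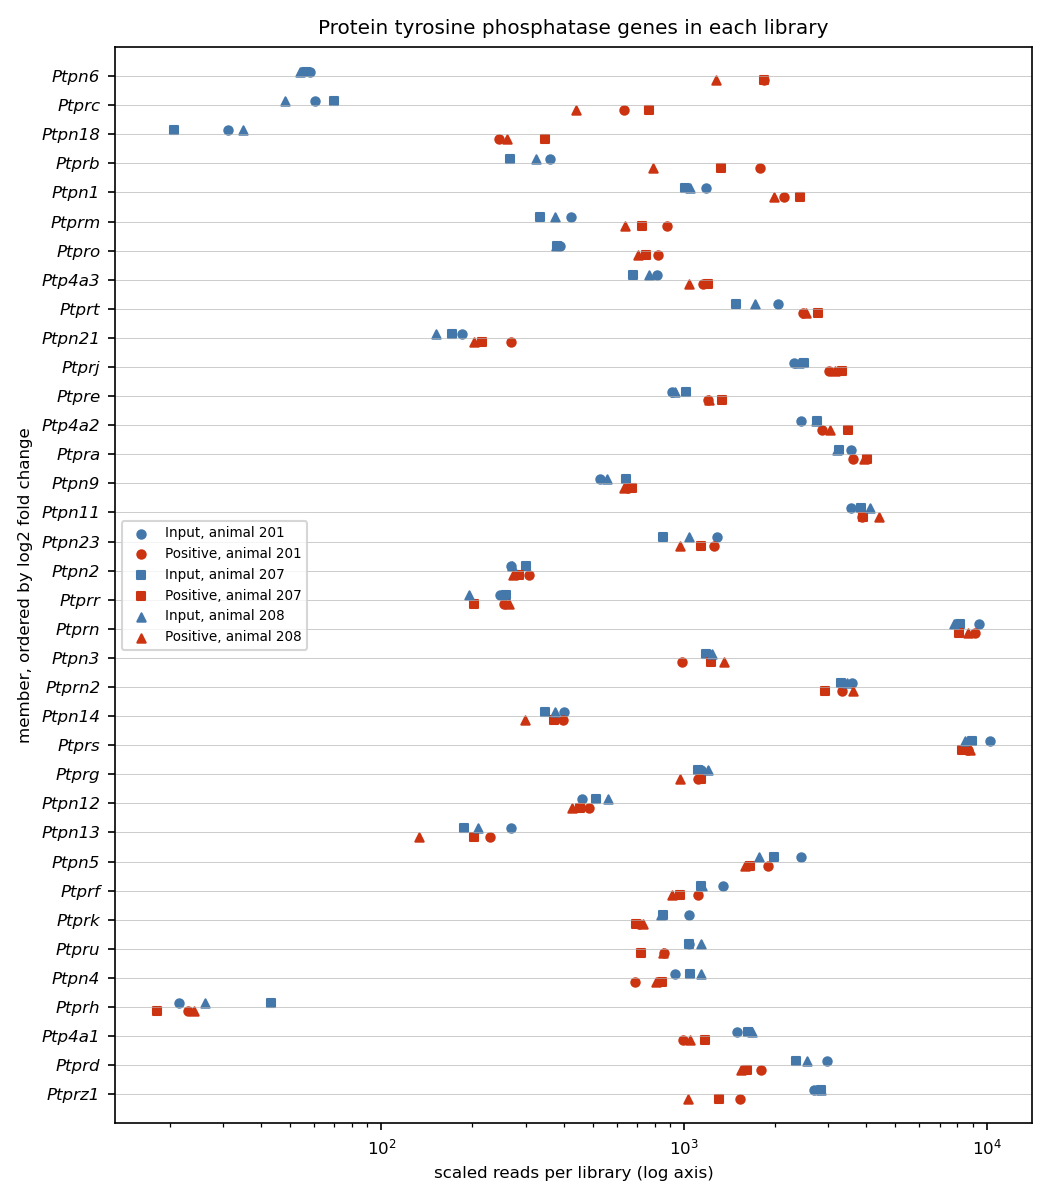
Scaled reads of the 36 phosphatase genes in each library, on a log axis, with Input in blue, Positive in red and 1 marker shape per animal. Ptpn6, Ptprc and Ptpn18 sit between 20.7 and 69.9 scaled reads in Input and between 244 and 1838 in Positive, while Ptprn and Ptprs stay near the right edge in both fractions.

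**Figure D2:**
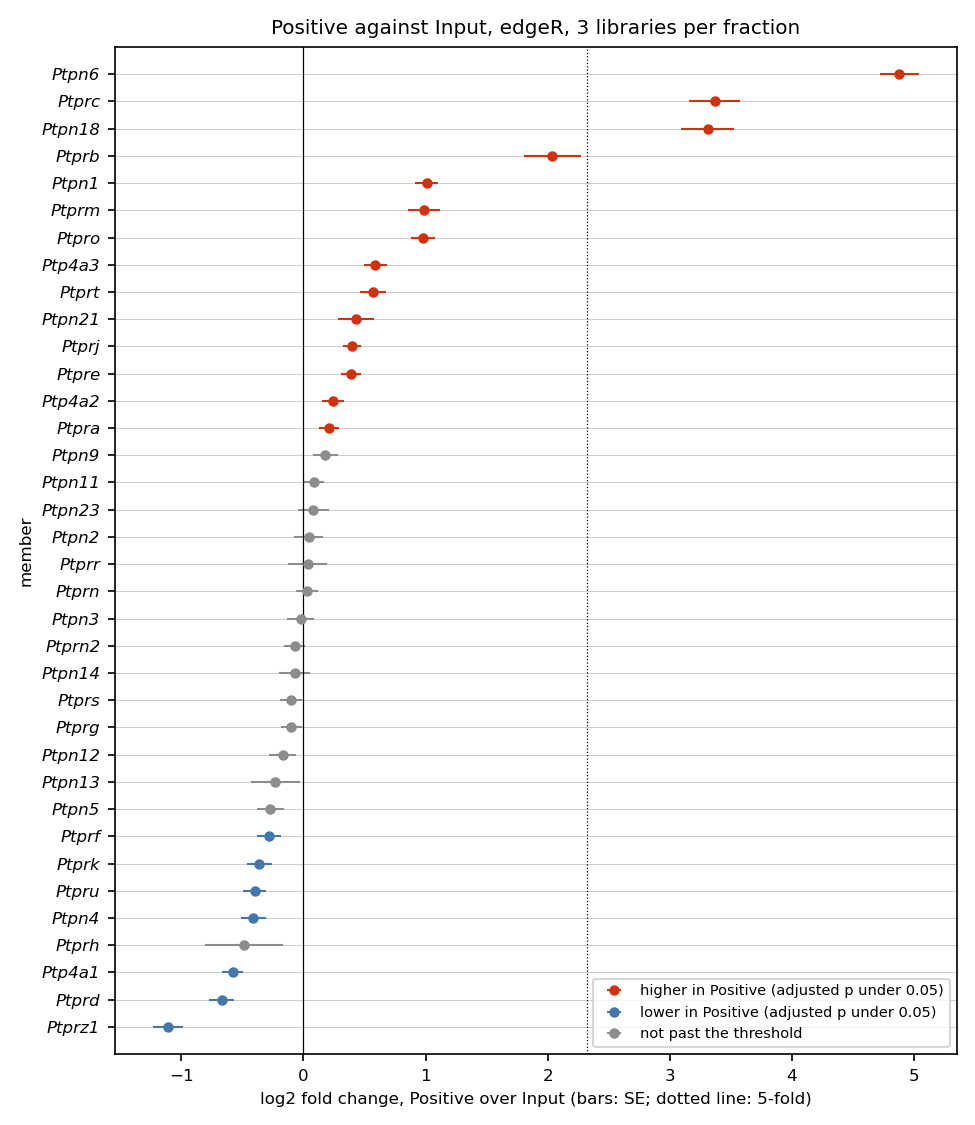
Log2 fold change of each phosphatase gene, Positive over Input, with bars of 1 SE from the fit over 3 libraries per fraction. Red points (14) were higher and blue points (7) lower at an adjusted p under 0.05, grey points (15) did not pass, and the dotted line marks 5-fold.

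Among the cytosolic phosphatases with SH2 domains, Ptpn6 was strongly enriched in Positive, while its closest relative Ptpn11 did not pass the test. Ptpn6 (ENSMUSG00000004266, chromosome 6, 124720707 to 124738714, minus strand, mm10) encodes SHP-1, which docks on phosphorylated inhibitory motifs (ITIMs) of immune receptors. It had 58.1, 56.5 and 54.0 scaled reads in Input and 1832, 1838 and 1278 in Positive. Every Positive library was far above every Input library, and animal 208 had the lowest Positive value, as it did for the summed microglia markers. The fold change was 29.4 (log2 4.88 ± 0.16 SE, adjusted p = 2.46e-10), the highest of the family. Microglia and border macrophage markers were enriched in the same libraries, and the part of either cell type in this value was not tested. Ptpn11 (ENSMUSG00000043733, chromosome 5, 121130533 to 121191397, minus strand) encodes SHP-2, which carries growth factor signals to Ras. It had 3560, 3835 and 4119 scaled reads in Input and 3875, 3920 and 4399 in Positive, with overlapping ranges (log2 0.083 ± 0.085 SE, adjusted p = 0.449). Per kilobase of transcript, the level of Ptpn6 was 25.3 ± 0.948 (SD, n = 3) in Input and 743 ± 145 in Positive, and that of Ptpn11 was 693 ± 50.5 and 734 ± 52.5. The pair thus lay far apart in Input, whereas their per-length levels in Positive differed by less than the spread between libraries.

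Most of the receptors and adaptors that recruit SHP-1 or SHP-2 were also higher. Of 17 such genes, 14 were higher in Positive and 1 lower, against 24.0% and 22.0% of all genes, and 2 did not pass. Their median log2 was 3.47 (within animals 2.57, 3.93 and 2.97). Those with the most reads were Sirpa (log2 1.09 ± 0.093 SE, adjusted p = 8.22e-07), the receptor for CD47, Cd33 (3.91 ± 0.15, 5.16e-10), a sialic acid receptor, Lair1 (4.03 ± 0.15, 5.16e-10), a collagen receptor, and Gab2 (1.43 ± 0.13, 1.32e-06), a docking protein for SHP-2. The lower gene was Frs2 (-0.29 ± 0.11, 0.0469), an adaptor of fibroblast growth factor receptors, and its call was lost when any of Input 201, Input 207 or Positive 201 was left out (adjusted p up to 0.179 over all alternatives). Gab1 (-0.0043, adjusted p = 0.98) and Gab3 (0.53, adjusted p = 0.126) did not pass. Of the 14 higher genes, Cd300a, Siglece, Clec4a2, Cd22, Pirb, Cd72, Clec12a and Pilra had Input means of only 1.55 to 19.3 scaled reads. They passed the filter on low reads only through Positive, which favours a higher call. The count and the median rest partly on them.

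Promoters are printed for the 3 genes over 5-fold, the most enriched of the family, from 250 bases before to 50 bases after the start in RefSeq (GRCm38.p6). Capitals mark AGGAAGT, the core of many ETS-factor sites, and GGGCGG, the GC box, on either strand.
Ptpn6, chr6:124738660-124738959, minus strand: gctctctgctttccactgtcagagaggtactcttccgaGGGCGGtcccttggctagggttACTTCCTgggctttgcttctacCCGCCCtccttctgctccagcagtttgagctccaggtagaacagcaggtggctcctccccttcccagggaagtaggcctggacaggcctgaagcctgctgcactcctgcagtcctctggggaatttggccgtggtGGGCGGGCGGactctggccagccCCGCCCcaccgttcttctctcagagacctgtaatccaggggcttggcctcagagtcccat
Ptprc, chr1:138175256-138175555, minus strand: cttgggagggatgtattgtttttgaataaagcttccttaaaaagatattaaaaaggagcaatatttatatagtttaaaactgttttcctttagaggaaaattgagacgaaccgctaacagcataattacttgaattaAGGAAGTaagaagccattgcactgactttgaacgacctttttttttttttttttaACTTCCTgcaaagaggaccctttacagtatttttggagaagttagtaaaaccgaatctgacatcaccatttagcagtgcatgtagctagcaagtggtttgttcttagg
Ptpn18, chr1:34459496-34459795, plus strand: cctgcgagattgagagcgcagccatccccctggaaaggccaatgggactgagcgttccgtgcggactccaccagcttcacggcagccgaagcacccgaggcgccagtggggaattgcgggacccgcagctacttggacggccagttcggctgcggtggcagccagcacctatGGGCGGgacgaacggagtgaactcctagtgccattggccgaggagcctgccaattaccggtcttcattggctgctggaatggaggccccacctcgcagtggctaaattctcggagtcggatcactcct
The window of Ptpn6 held 1 AGGAAGT and 5 GC boxes, some overlapping each other. That of Ptprc, for the upstream of 2 listed starts, held 2 AGGAAGT, no GC box and 33.7% G or C. That of Ptpn18 held 1 GC box and no AGGAAGT. Over 32851 promoters of this length AGGAAGT was present in 9.35% and the GC box in 35.7%. Of the 36 phosphatases 31 had a promoter in the table, and of these 6 held AGGAAGT (Ptpn5, Ptpn6, Ptprc, Ptpre, Ptprg and Ptprr) and 23 held a GC box. A gene was counted if any of its listed starts held the motif. The shares above are per promoter, so these counts are not directly comparable with them. A match only says that these letters stand in the window, and AGGAAGT was present in genes called higher and in genes that did not pass. Which start the RNA in these libraries came from was not tested.

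Ptprc, which encodes CD45, the leukocyte surface phosphatase that acts on the inhibitory tail tyrosine of Src-family kinases, was 10.3-fold enriched. The gene (ENSMUSG00000026395, chromosome 1, 138062861 to 138175708, minus strand) had 60.2, 69.9 and 48.2 scaled reads in Input and 634, 767 and 440.3 in Positive. Positive libraries were above Input libraries throughout, and the animals kept their order in the 2 fractions. On the log2 scale this was 3.37 ± 0.21 (SE, adjusted p = 4.99e-08). Among 7 Src-family and Csk kinase genes examined, 2 were higher and 1 lower, against 24.0% and 22.0% of all genes, and 4 did not pass. The higher ones were Lyn (log2 4.10 ± 0.16 SE, adjusted p = 5.27e-10) and Csk (1.59 ± 0.13, 4.37e-07), the kinase that phosphorylates the tail tyrosine. Src (0.023, adjusted p = 0.829) and Fyn (-0.13, adjusted p = 0.184) did not pass, and Matk, a relative of Csk, was lower (-0.32 ± 0.10, 0.0164), a call lost without Input 207 (adjusted p up to 0.0778 over all alternatives). CD45 is also found on lymphocytes and monocytes. Of 13 lymphocyte and NK cell markers only Cd79b and Cd4 were in the table, with summed scaled reads of 3.76 to 16.3 in Input and 87.2 to 150.4 in Positive, and of 9 monocyte and neutrophil markers only Ly6c2, with 2.10 to 12.2 and 20.8 to 24.7. Cd79b, Cd4 and Ly6c2 passed the filter on low reads only through Positive, which favours a rise from Input. The part of such cells in the Ptprc value was not tested.

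Within the cytosolic branch rich in proline, glutamate, serine and threonine (PEST), Ptpn18 was enriched and Ptpn12 did not pass the test. Ptpn18 (ENSMUSG00000026126, chromosome 1, 34459762 to 34475733, plus strand) encodes the PEST-type phosphatase BDP1, also called PTP-HSCF. It had 31.1, 20.7 and 34.9 scaled reads in Input and 244, 347 and 259.6 in Positive. Animal 207 combined the lowest Input with the highest Positive value. The fold change was 9.94 (log2 3.31 ± 0.22 SE, adjusted p = 9.52e-08). Ptpn12, which encodes PTP-PEST, a regulator of focal adhesion proteins, had 462, 511 and 559.5 scaled reads in Input and 485, 455 and 426 in Positive, and the groups overlapped (log2 -0.17 ± 0.11 SE, adjusted p = 0.228).

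Of the 4 receptors of the R3 branch, which carry a row of fibronectin-type repeats outside the cell, 3 were enriched to different degrees. Over all genes tested, 24.0% were called higher. Ptprb (ENSMUSG00000020154, chromosome 10, 116275523 to 116389535, plus strand) encodes VE-PTP, the endothelial phosphatase that acts on the receptor Tie2 and on VE-cadherin. It had 362, 267 and 325 scaled reads in Input and 1790, 1326 and 792 in Positive (4.10-fold, log2 2.04 ± 0.23 SE, adjusted p = 1.26e-05). Its log2 ratio within an animal was 2.30, 2.31 and 1.28, the lowest in animal 208. The medians of the endothelial markers (2.19, 2.01 and 1.12) and of the microglia markers (4.63, 4.88 and 4.40) were lowest there too. Tek, the gene of Tie2, was itself higher (log2 2.26, adjusted p = 1.69e-05), as was Cdh5, the gene of VE-cadherin (1.82, 4.1e-05). The part of endothelial RNA in the Ptprb value was not tested.

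Ptpro, known from podocytes and neurons, had 389, 382 and 379 scaled reads in Input and 819.8, 747 and 705 in Positive (log2 0.98 ± 0.10 SE, adjusted p = 3.73e-06). Ptprj, which encodes CD148, a counterpart of CD45 in its action on Src-family kinases, had 2303, 2490 and 2407 in Input and 3025, 3332 and 3160 in Positive (log2 0.40 ± 0.075, adjusted p = 0.000805). Both were separated between fractions with little spread within them. For Ptprj, 6.23% of its 42-base transcript windows also occur in another annotated gene, so the assignment of some reads is uncertain. Ptprh was near the detection limit, at 21.5, 43.2 and 26.2 scaled reads in Input and 22.9, 18.1 and 24.0 in Positive (log2 -0.49 ± 0.32, adjusted p = 0.237).

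The R2B branch has 4 receptors with a MAM domain that bind their own kind on the next cell. It was divided evenly, with Ptprm and Ptprt higher and Ptprk and Ptpru lower. Shares over all genes tested were 24.0% higher and 22.0% lower. Ptprm had 422, 334 and 375 scaled reads in Input and 878, 729 and 638 in Positive (log2 0.99 ± 0.13 SE, adjusted p = 4.98e-05). Ptprm is known from endothelium as well as brain. Its log2 ratio was lowest in animal 208 (1.05, 1.12 and 0.77), as were the medians of the endothelial and of the microglia markers. It lay below all 10 endothelial markers in animals 201 (lowest Esam, 1.88) and 207 (lowest Kdr, 1.38), but not in 208. The part of endothelial RNA in the Ptprm value was not tested. Ptprt had 2039, 1484 and 1720 in Input and 2468, 2769 and 2540 in Positive (log2 0.57 ± 0.11, adjusted p = 0.000765). Its within-animal ratio ranged from 0.28 in animal 201 to 0.90 in animal 207. Ptprk had 1036, 855 and 839 in Input and 708, 693 and 731 in Positive (log2 -0.36 ± 0.10, adjusted p = 0.00994). Ptpru had 1042, 1038 and 1137 in Input and 859, 721 and 853 in Positive (log2 -0.40 ± 0.092, adjusted p = 0.00332). All 4 showed their direction in each of the 3 animals.

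Ptpra and Ptpre, the R4 receptors with short extracellular parts that activate Src-family kinases, were both modestly higher. Ptpre, the relative more abundant in blood cells, had 915, 1018 and 933 scaled reads in Input and 1198, 1333 and 1213 in Positive (log2 0.39 ± 0.084 SE, adjusted p = 0.00239), and its ratio was 0.39, 0.39 and 0.38 in the 3 animals. Ptpra, expressed in most tissues, had 3563, 3249 and 3212 in Input and 3627, 4027 and 3942 in Positive (log2 0.21 ± 0.079, adjusted p = 0.0446). In animal 201 the ratio of Ptpra was only 0.025, and its call was lost without Input 207 (0.15), Input 208 (0.175) or Positive 207 (0.13), within a range of 0.032 to 0.176 over all alternatives.

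The LAR branch consists of Ptprf, Ptprd and Ptprs, receptors with immunoglobulin and fibronectin domains that organise presynaptic terminals. Ptprd (ENSMUSG00000028399, chromosome 4, 75941238 to 78211961, minus strand) had 2965, 2346 and 2558 scaled reads in Input and 1804, 1614 and 1543 in Positive, or 63.1% of Input (log2 -0.67 ± 0.10 SE, adjusted p = 0.000117). Ptprf, the gene of LAR itself, had 1351, 1140 and 1151 in Input and 1116, 968 and 915 in Positive (log2 -0.28 ± 0.10, adjusted p = 0.0353). This call did not survive the loss of Input 201 (0.148), Input 208 (0.0545), Positive 207 (0.0947) or Positive 208 (0.0804), in a range of 0.00803 to 0.148 over all alternatives. Ptprs, which also binds heparan and chondroitin sulfate proteoglycans, was among the most abundant members, with 10288, 8940 and 8459 in Input and 8698, 8298 and 8823 in Positive. Its fractions overlapped and it did not pass (log2 -0.10 ± 0.09, adjusted p = 0.383). Of 15 genes for synaptic partners and liprins of these receptors, 1 was higher and 5 lower, against 24.0% and 22.0% of all genes. The other 9 did not pass, and the median log2 of the 15 was -0.10. The most abundant were the liprin genes Ppfia4 (0.44 ± 0.074, adjusted p = 0.000393) and Ppfia3 (0.071, 0.52), the ligand Lrrc4b (-0.60 ± 0.10, 0.000253) and the TrkC gene Ntrk3 (-0.38 ± 0.074, 0.00122).

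Ptprz1 was the most depleted phosphatase. The gene (ENSMUSG00000068748, chromosome 6, 22875502 to 23052916, plus strand) encodes a chondroitin sulfate proteoglycan receptor of astroglia and oligodendrocyte precursors that binds pleiotrophin, contactins and tenascins. It had 2682, 2845 and 2828 scaled reads in Input and 1532, 1303 and 1029 in Positive, or 46.2% of Input (log2 -1.11 ± 0.12 SE, adjusted p = 6.68e-06). The Input values were tight, and the depletion was deepest in animal 208 (log2 -0.81, -1.13 and -1.46 by animal). The medians of the oligodendrocyte precursor markers were -1.69, -1.58 and -2.10 in the same animals and those of the astrocyte markers were -0.14, -0.15 and -0.60, so Ptprz1 lay between the medians of the lists in each animal. Their part in the Ptprz1 value was not tested. Its relative Ptprg, which has the same carbonic anhydrase-like domain and binds contactins, had 1136, 1117 and 1197 in Input and 1111, 1137 and 967 in Positive (log2 -0.10 ± 0.086, adjusted p = 0.36). Of 12 ligands and partners of the pair, 4 were lower, against 22.0% of all genes, and 8 did not pass (median log2 -0.24). The ligand genes Ptn (-0.64 ± 0.12, adjusted p = 0.000684) and Mdk (-1.24 ± 0.24, 0.00107) were lower, as were Cntn2 (-1.02 ± 0.11, 6.64e-06) and Nfasc (-0.28 ± 0.082, 0.0146), the latter not without Input 201 (adjusted p up to 0.0644 over all alternatives). Cntn1 had -0.21 (adjusted p = 0.0572, and 0.034 with the animal as a block).

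**Figure D3:**
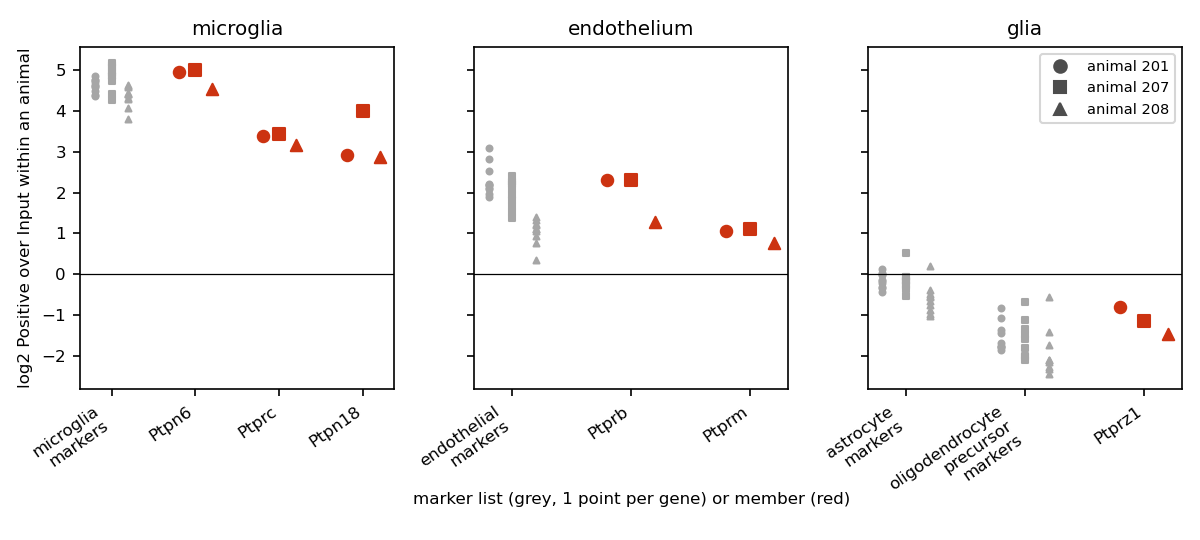
Log2 ratio of Positive over Input within each animal for 6 phosphatases (red) beside the genes of the marker lists (grey, 1 point per gene), with 1 marker shape per animal. Ptpn6 lies at the upper end of the microglia markers, Ptprc and Ptpn18 below them in each animal, Ptprb within the endothelial markers and Ptprz1 between the medians of the astrocyte and oligodendrocyte precursor markers.

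The neuronal phosphatases that bind the kinase ERK through a kinase interaction motif did not pass the test. Ptpn5 encodes STEP, which dephosphorylates ERK and glutamate receptors. It had 2429, 1991 and 1765 scaled reads in Input and 1899, 1658 and 1587 in Positive (log2 -0.27 ± 0.11 SE, adjusted p = 0.069). Within animals its ratio was -0.36, -0.26 and -0.15, and with the animal as a block it passed (log2 -0.26, adjusted p = 0.0111). It also passed without Input 208 (0.0278) or Positive 201 (0.0332), within a range of 0.0111 to 0.325 over all alternatives. Ptprr had a log2 fold change of 0.037 ± 0.16 (adjusted p = 0.867), with animals on either side of 0 (0.043, -0.36 and 0.43).

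Ptprn and Ptprn2 encode IA-2 and IA-2β, proteins of dense-core vesicles in neurons and endocrine cells that have lost phosphatase activity towards tyrosine. Ptprn had 9410, 8171 and 7776 scaled reads in Input and 9138, 8099 and 8666 in Positive (log2 0.031 ± 0.092 SE, adjusted p = 0.811). Ptprn2 had 3591, 3311 and 3458 in Input and 3332, 2928 and 3606 in Positive (log2 -0.071 ± 0.087, adjusted p = 0.534). Both were abundant in either fraction, and their Input and Positive ranges overlapped.

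Among the remaining cytosolic genes, Ptpn1 was clearly higher. Ptpn1 (ENSMUSG00000027540, chromosome 2, 167932057 to 167979385, plus strand) encodes PTP1B, an enzyme on the endoplasmic reticulum that acts on insulin and leptin receptor signalling. It had 1181, 1010 and 1050 scaled reads in Input and 2145, 2420 and 1982 in Positive (2.02-fold, log2 1.01 ± 0.094 SE, adjusted p = 1.98e-06). Its relative Ptpn2, which encodes the JAK and STAT phosphatase TC-PTP, had 268, 299.7 and 271 in Input and 308, 284 and 272 in Positive (log2 0.043 ± 0.12, adjusted p = 0.798).

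The phosphatases with a FERM domain, which tethers them below the plasma membrane, went in both directions. Ptpn4 had 933, 1046 and 1138 scaled reads in Input and 688, 847 and 807 in Positive (log2 -0.41 ± 0.10 SE, adjusted p = 0.00576). Its relative Ptpn3 had 1201, 1183 and 1239 in Input and 988, 1228 and 1356 in Positive (log2 -0.021 ± 0.11, adjusted p = 0.891). Ptpn21 had 185, 171 and 152 in Input and 268, 215 and 203 in Positive (log2 0.43 ± 0.15, adjusted p = 0.0371). Its call was lost without Input 207 (0.0872), Input 208 (0.141), Positive 201 (0.163) or Positive 207 (0.053), within a range of 0.0164 to 0.163 over all alternatives. Ptpn14, a regulator of Yap and the closest relative of Ptpn21, had 401, 348 and 375 in Input and 399, 371 and 298 in Positive (log2 -0.073 ± 0.13, adjusted p = 0.677). The large scaffold Ptpn13 had log2 -0.23 ± 0.20 (adjusted p = 0.367). Outside the FERM branch, the secretory vesicle phosphatase Ptpn9 had log2 0.18 ± 0.10 (adjusted p = 0.158) and the endosomal sorting protein Ptpn23 had 0.082 ± 0.13 (adjusted p = 0.649).

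The Ptp4a group, small phosphatases held to membranes by a prenyl anchor and also called phosphatases of regenerating liver, was split. Ptp4a3 had 814, 681 and 769 scaled reads in Input and 1160, 1203 and 1043 in Positive (log2 0.59 ± 0.094 SE, adjusted p = 0.000244). Ptp4a1 (ENSMUSG00000026064, chromosome 1, 30940302 to 30949770, minus strand) had 1492, 1627 and 1680 in Input and 991, 1170 and 1051 in Positive, or 67.0% of Input (log2 -0.58 ± 0.087, adjusted p = 0.000153). Ptp4a2 had 2432, 2757 and 2727 in Input and 2850, 3478 and 3043 in Positive (log2 0.24 ± 0.09, adjusted p = 0.0417). The call of Ptp4a2 was lost without Input 201 (0.152), Input 207 (0.0674), Input 208 (0.0816) or Positive 207 (0.182), within a range of 0.0151 to 0.182 over all alternatives. The coding sequences of Ptp4a1 and Ptp4a2 were 73.6% identical. Of the 42-base transcript windows, 11.5% in Ptp4a1 and 2.80% in Ptp4a2 also occur in other annotated genes, so part of their reads is of uncertain origin.

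Close relatives were compared within each animal by the difference between their log2 ratios of Positive over Input. In all 16 pairs compared the difference had the same sign in the 3 animals, but the two-sided exact sign-flip permutation test cannot go below p = 0.25 with 3 animals, and every pair had p = 0.25 (adjusted over the 16 pairs, 0.25). The widest gaps were between Ptpn6 and Ptpn11 (4.75 ± 0.27 SD, n = 3) and between Ptpn18 and Ptpn12 (3.43 ± 0.67). Ptprj minus Ptprb was -1.56 ± 0.58 and Ptprj minus Ptpro -0.57 ± 0.093, while Ptp4a3 exceeded Ptp4a1 by 1.17 ± 0.11 and Ptp4a2 exceeded it by 0.82 ± 0.013. Ptprz1 minus Ptprg was -1.03 ± 0.22, Ptpn1 minus Ptpn2 was 0.97 ± 0.34 and Ptprk minus Ptprt was -0.93 ± 0.24. In the LAR branch, Ptprs exceeded Ptprd by 0.57 ± 0.20 and Ptprf exceeded it by 0.38 ± 0.071. Ptpn21 minus Ptpn14 was 0.51 ± 0.26, Ptprm minus Ptprt 0.40 ± 0.33 and Ptpn4 minus Ptpn3 -0.38 ± 0.23. The narrowest gaps were Ptpre minus Ptpra (0.18 ± 0.16) and Ptprn2 minus Ptprn (-0.11 ± 0.051). Without animal 201, Ptpre minus Ptpra was 0.081 and Ptprm minus Ptprt 0.21.

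**Figure D4:**
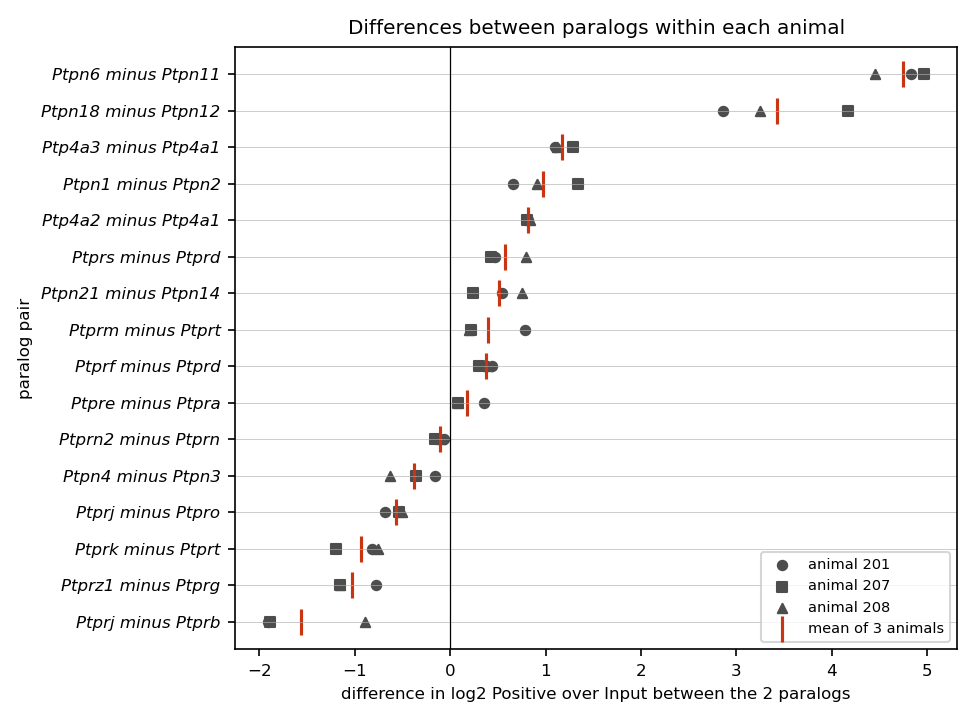
Difference between 2 related phosphatases in log2 Positive over Input, for 16 pairs, with 1 marker per animal and a red tick at the mean of the 3 animals. Ptpn6 minus Ptpn11 (mean 4.75) and Ptpn18 minus Ptpn12 (mean 3.43) stand apart to the right, and each pair has its 3 animals on the same side of 0.

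The make-up of the family was described by the share of each member in the summed level of all 36 per kilobase of principal transcript. The summed level was 11233 to 12191 scaled reads per kilobase in Input and 12618 to 13195 in Positive. By this measure Ptprn ranked first in both fractions (20.5% ± 1.13 of the family in Input and 18.8% ± 1.09 in Positive, SD, n = 3), followed by Ptprs (11.6% ± 0.666 and 9.71% ± 0.454) and Ptprn2 (9.33% ± 0.254 and 7.95% ± 0.95). Ptpn6 moved from rank 33 at 0.219% ± 0.00556 to rank 5 at 5.73% ± 1.01, next to Ptpn11 at 6.01% ± 0.682 and 5.68% ± 0.538. In Positive, the shares of Ptpn6, Ptpn11 and Ptpra (5.61% ± 0.393) overlapped, whereas Ptp4a2 (6.62% ± 0.706) was above Ptpn11 and Ptpra in each animal. Without division by length, Ptpn6 had 2.65% of the family reads in Positive against 6.55% for Ptpn11, so their closeness rests on the length. The first place of Ptprn in Input also rests on it, since Ptprs had 15.8% of the family reads there and Ptprn 14.5%, and both had 13.9% in Positive. Ptprc had 0.109% ± 0.0204 in Input and 1.01% ± 0.257 in Positive. Ptpn18 had 0.16% ± 0.041 and 1.41% ± 0.274, and Ptpn1 had 2.21% ± 0.0892 and 4.00% ± 0.365. Together Ptpn6, Ptprc and Ptpn18 made up 0.488% ± 0.0169 of the family level in Input and 8.14% ± 1.38 in Positive, with 6.63% in animal 208. The LAR branch went from 15.3% ± 0.838 to 12.0% ± 0.434 and the dense-core vesicle pair from 29.8% ± 0.957 to 26.7% ± 1.93, while the Ptp4a group had 11.4% ± 1.00 and 11.1% ± 0.954. These shares are descriptions without a test, and they depend on the transcript taken for the length of each gene.

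**Figure D5:**
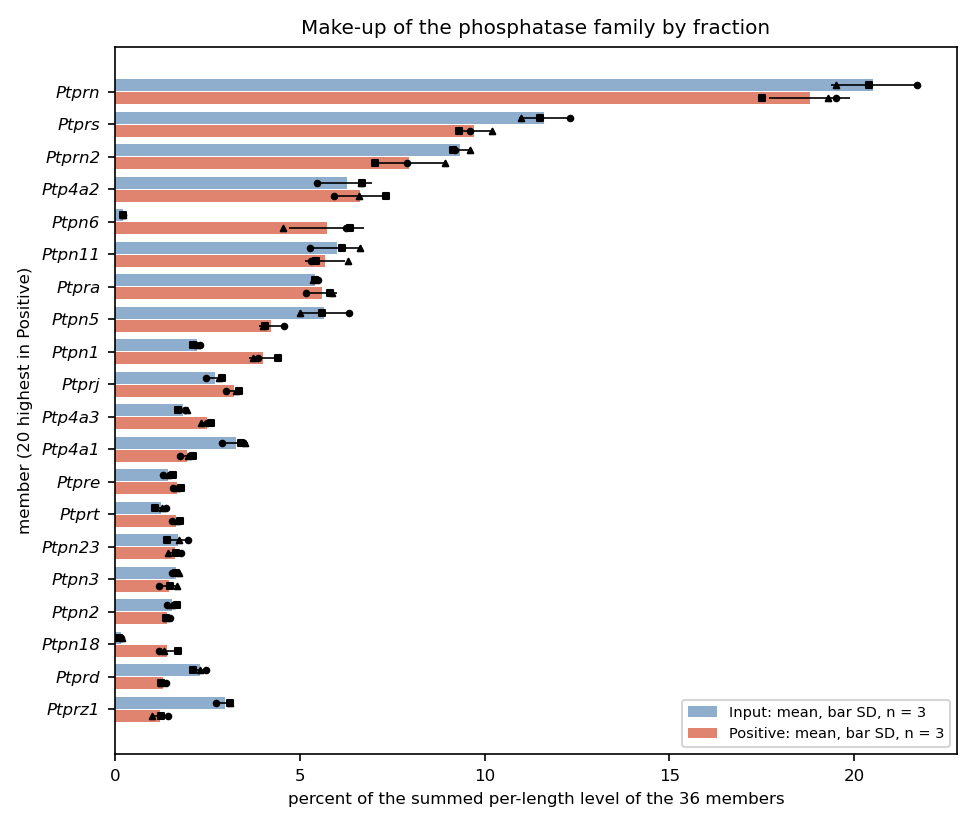
Share of the family level, per transcript length, of the 20 phosphatases highest in Positive, as means of 3 libraries (bars from 0) with SD and 1 point per animal, for Input (blue) and Positive (red). On this per-length scale Ptprn leads in both fractions, and Ptpn6 goes from 0.219% in Input to 5.73% in Positive.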

How the data were processed

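RNA from Input and Positive fractions of 3 hippocampi was sequenced from directional, poly(A)-selected libraries. The authors trimmed and aligned reads directionally to mm10 in Strand NGS, normalized with DESeq and kept genes with 20 or more reads in every sample of a condition. Per the file headers and values, the deposited table holds estimated counts per gene, not all whole (18.5% to 25.0% of values per library were whole numbers). It also holds log2 values that the authors normalized and centred on the Input median, used here only for an alternative.

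The estimated counts were rounded, scaled by the median of ratios and tested in edgeR 4.0.16 (quasi-likelihood, R 4.3.3) without pairing, over 15344 genes with more than 20 scaled reads in all 3 libraries of a fraction (44 genes removed). The Benjamini-Hochberg adjustment covered every gene tested, and the threshold was 0.05. Alternatives were TMM, total read and the authors' size factor scaling, no filter, a filter at 100 scaled reads, DESeq2 1.42.0, limma 3.58.1, the animal as a block, each library left out, other pseudocounts, and make-up without length or with the union of exons. Samples with the same number come from the same animal per the labels, and deviations from the fraction means correlated at 0.194, 0.0579 and 0.12 within animals 201, 207 and 208, against -0.14 to 0.0318 between animals. Ratios within an animal added 1 to scaled reads. Lengths and coding windows came from GENCODE M21 and promoters from RefSeq. The fit was also run on simulated counts in which far fewer genes changed than were called here. That run does not show how the test behaves with this many changes.

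Members, gene lists and pairs were chosen with earlier results of these data known. Every member is named, and values in every library are given for up to 8 called members at each end with at least 100 scaled reads on average, for compared pairs and for up to 4 abundant members that did not pass. From each list, up to 4 genes with the most reads are named, plus those a sentence on a member needs. Reads carry no molecular identifiers, so counts are not independent molecules. No comparison columns of the authors were used. The unbound fraction was not analysed here, and some genes of the partner lists are not reported here.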

Additional observations from a re-analysis of the deposited data

How the results depend on the processing

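The counts of phosphatases called ranged from 11 to 14 higher and 6 to 8 lower over all alternatives (11 and 8 with total read scaling, 12 and 8 with the size factors of the authors, 12 and 6 with limma on the normalized values, 14 and 8 with animals as replicate block, 14 and 7 with TMM, DESeq2, no filter or a filter at 100 scaled reads, 11 to 14 and 6 to 8 with 1 library left out). Those over 5-fold were 3 throughout. Of the 36, 24 kept their call and direction in every alternative in which they were tested. The block added Ptpn5 (adjusted p = 0.0111) and changed no other phosphatase call. Ptpn5 also passed with total read scaling (0.0249) and the size factors of the authors (0.0497). Ptpra was lost with total read scaling (0.176), those size factors (0.0755) and limma (0.14), Ptp4a2 with the same 3 (0.141, 0.0578 and 0.141), Ptprf with limma (0.0784) and Ptpn21 with total read scaling (0.0805).

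Direction changed only in genes that did not pass. With total read scaling the log2 values were -0.046 for Ptprn, -0.04 for Ptprr and -0.034 for Ptpn2. With 1 library left out they ranged from -0.026 to 0.11 for Ptprn, -0.16 to 0.039 for Ptpn14, -0.12 to 0.10 for Ptpn3, -0.052 to 0.24 for Ptpn23, -0.076 to 0.15 for Ptprr, -0.14 to 0.0067 for Ptprn2 and -0.0089 to 0.10 for Ptpn2. Total read scaling shifted the median of all genes from -0.012 to -0.089.

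Shares of the family moved with the length. Without division by length, Ptpn6, Ptprc and Ptpn18 together made up 0.248% of reads in Input and 4.09% in Positive, the LAR branch 22.4% and 18.1%, and the dense-core vesicle pair 20.4% and 19.2%. With the union of exons as length, an alternative added after seeing the data, the trio had 0.36% in Input, the LAR branch 11.2% and 8.67%, and the pair 31.0% in Input. With 3 animals, no paralog difference can pass a permutation test.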

Other observations

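Tyrosine phosphatases outside the classical family were also divided between the fractions. Of 36 genes examined for dual-specificity, myotubularin, slingshot, Cdc25, Eya and low molecular weight phosphatases, 7 were higher in Positive, 10 lower (11 with the animal as a block) and 19 did not pass (median log2 -0.10, against 24.0% and 22.0% of all genes called in each direction). Those with the most reads among them were Dusp8 (-0.28 ± 0.088 SE, adjusted p = 0.0218), Dusp3 (-0.13 ± 0.072, 0.163), and Mtmr6 (0.55 ± 0.073, 5.42e-05) and Mtmr3 (0.34 ± 0.072, 0.00192), which act on phosphoinositides. The call of Dusp8 was lost without Input 207, Input 208, Positive 201 or Positive 207.

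Of 29 receptor tyrosine kinase genes, 7 were higher and 13 lower (14 with the block). Over all genes 24.0% were called higher and 22.0% lower. The other 9 kinase genes did not pass the threshold, and the median log2 of the 29 was -0.26. Csf1r, the growth factor receptor of microglia, had means of 1095 scaled reads in Input and 27058 in Positive (4.63 ± 0.14, adjusted p = 1.94e-10). The neurotrophin receptor genes Ntrk2 (0.19 ± 0.082, 0.0783) and Ntrk3 (-0.38 ± 0.074, 0.00122) and the Gas6 receptor gene Tyro3 (-0.47 ± 0.10, 0.0017) were the next most abundant.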
